A study of Homo sapiens with 10 samples.

Results

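Nectins are cell adhesion molecules of the immunoglobulin superfamily, and 8 genes of this system were followed in BEAS2B cells: NECTIN1, NECTIN2, NECTIN3 and NECTIN4, the nectin-like molecules PVR, CADM1 and CADM4, and AFDN. They are 8 of the 52402 gene symbols in the count files, each found by its symbol, and each symbol had 1 row per file. NECTIN4 was picked because its fall in the 3-miRNA mixed group against miRcontrol was among the largest in these data, so its values in comparisons with those groups are given as a description, with no test. The other 7 members were taken as its family and its cytoplasmic adaptor.

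BEAS2B is a virus-immortalized human bronchial epithelial line, labelled as normal bronchial epithelium with wild-type genotype. The study asked how its transcriptome responds to miRNAs of a diagnostic panel for small cell lung cancer. All 10 libraries came from cells transfected with Lipofectamine 2000, with a final concentration of 50 nM and RNA taken after 48 h. The 5 groups of 2 libraries each received the miR-200b-3p mimic (miR200b_mimic), the miR-3124-5p mimic (miR3124_mimic), an inhibitor of miR-92b (miR92b_inhibitor), scrambled control miRNA (miRcontrol) or both mimics with the inhibitor (the mixture). How much of each miRNA the mixture held was not given in the sources used here, nor were the arm of miR-92b that the inhibitor blocks and the origin of the replicates, so p-values measure the spread between these libraries, which may be technical.

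Nectins form pairs on the surface of a cell and bind nectins or nectin-like molecules on the neighbouring cell, and through afadin they tie these contacts to the actin cytoskeleton and bring cadherins to the forming adherens junction. Nectin-like molecules share the extracellular plan of the nectins but do not bind afadin; instead they use other scaffold proteins. Some members are also ligands of receptors on lymphocytes, and in epithelia such as that of the airway nectins are best known from adherens junctions and as entry receptors of viruses.

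The libraries held between 13587666 and 18503890 counts, and 14884 genes passed the filter on low counts, among them 7 of the 8 members. Expression levels are in normalized CPM, which are read counts scaled to library size, and an adjusted p is that of the quasi-likelihood test of edgeR after Benjamini-Hochberg adjustment over these 14884 genes, called at 0.05. In bulk RNA, fewer expressing cells and less RNA per cell cannot be told apart. Of 9 epithelial markers, KRT7, KRT8 and KRT18 were high in miRcontrol, with 793 ± 46.0, 814 ± 0.168 and 628 ± 13.2 normalized CPM (SD, n = 2). The other keratins were low there: KRT17 and KRT19 had means of 5.74 and 8.2, KRT5 had at most 4 counts and KRT14 had 0. EPCAM and CDH1 had at most 8 and 3 counts. Mean KRT19 was 0.76 normalized CPM in miR3124_mimic and 14.4 in miR200b_mimic. The summed level of 9 epithelial markers was 2227 to 2273 normalized CPM in miRcontrol, 4202 to 4282 in miR200b_mimic, 2785 to 2794 in miR3124_mimic, 2102 to 2192 in miR92b_inhibitor and 4091 to 4118 in the mixture. The summed level of 10 mesenchymal markers was 7426 to 7452, 4652 to 4708, 4540 to 4666, 6951 to 7096 and 5022 to 5039 in the same order. Most of it was VIM and FN1, with means of 3800 and 3264 normalized CPM in miRcontrol. In miR3124_mimic VIM fell to 812.9 while FN1 was at 3383. COL1A1 rose there from 11.99 to 23.82, ZEB2 from 32.28 to 46.54 and PDGFRB from 7.626 to 29.47. CDH2 and ZEB1 were slightly lower there, at 248.7 and 57.88 beside 259.1 and 63.11. In miR200b_mimic VIM, FN1, CDH2, ZEB1, ZEB2 and PDGFRB were lower than in miRcontrol and COL1A1 was higher, at 36.87. The leukocyte sum over 6 markers was at most 2.21 normalized CPM outside miR3124_mimic and 12.8 within it, where CD14 made up 12.5 ± 0.220 and PTPRC was at 0. The endothelial sum over 3 markers reached 4.78 in miR3124_mimic, of which CDH5 had up to 4.03, and the neuroendocrine sum over 5 markers was at most 0.744 in every library. The part of these shifts in the members' levels was not tested.

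The transfected miRNAs are shown because their seeds, bases 2 to 8 in capitals, fix which words of a 3′ untranslated region (3′UTR) they can pair with. The 4 mature sequences are from RefSeq on GRCh38.p14, and both arms of miR-92b are given. No 2 of them share a seed.
hsa-miR-3124-5p: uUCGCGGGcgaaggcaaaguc
hsa-miR-200b-3p: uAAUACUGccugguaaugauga
hsa-miR-92b-5p: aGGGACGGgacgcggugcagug
hsa-miR-92b-3p: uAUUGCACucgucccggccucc
The miR-3124-5p arm lies at chr1:248826383-248826403 and that of miR-200b-3p at chr1:1167160-1167181, both on the plus strand. The arms of miR-92b lie at chr1:155195196-155195217 (5p) and chr1:155195237-155195258 (3p), also on the plus strand.

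The words that pair with these seeds were searched, on the sense strand, in each member's 3′UTR, taken from its transcript with the longest coding sequence in GENCODE v29 (GRCh38), and in the 12123 such 3′UTRs of genes tested. CCCGCGA, which pairs with miR-3124-5p, was in 0.487% of these 3′UTRs and in that of no member. CAGTATT, which pairs with miR-200b-3p, was in 17.1% of all 3′UTRs, and its longer form CAGTATTA, with an A after the word, was in 4.69%. Among the members, NECTIN4 and NECTIN1 held the longer form. CCGTCCC, for miR-92b-5p, was in 3.6% of all 3′UTRs and in that of no member, and GTGCAATA, for miR-92b-3p, was in 3.32% and in that of NECTIN1. The sites of these members are shown with the word in capitals.
NECTIN4, miR-200b-3p word: cagaccccagagCAGTATTAatgatgcaga
NECTIN1, miR-200b-3p word: tgcttttcccagCAGTATTAgtgtccccca
NECTIN1, miR-92b-3p word: cccaagtcactgGTGCAATAacttttctgc
The NECTIN4 word lies at chr1:161072201-161072208 on the minus strand, from base 453 of a 3′UTR of 1666 bases. The NECTIN1 words lie at chr11:119662735-119662742 and chr11:119661643-119661650 on the minus strand, from bases 2005 and 3097 of a 3′UTR of 3755 bases. With all coding transcripts searched, CADM1 also held 1 GTGCAAT and 1 CCGTCCC, each in 1 transcript. A match is a description of the letters in these windows and is not evidence of pairing.

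NECTIN4, which lies on chromosome 1 at 161070995-161089599 on the minus strand, binds NECTIN1 across cell contacts and is a receptor of measles virus. It was counted 33 and 28 times in miRcontrol, 7 and 17 times in miR200b_mimic, 18 and 20 times in miR3124_mimic, 14 and 19 times in miR92b_inhibitor, and 6 and 9 times in the mixture. The level was 1.89 and 1.67 normalized CPM in miRcontrol, 0.523 and 0.978 in miR200b_mimic, 1.23 and 1.13 in miR3124_mimic, 0.817 and 1.04 in miR92b_inhibitor, and 0.332 and 0.484 in the mixture. Both control libraries were thus above the other 8 and both mixture libraries below them, while the libraries of miR200b_mimic and miR92b_inhibitor overlapped. These are few reads, and the counting error of each value is correspondingly wide.

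The mean NECTIN4 level fell from 1.78 ± 0.154 normalized CPM in miRcontrol to 0.408 ± 0.108 in the mixture (SD, n = 2 each). This is a log2 fold change of -2.10 (SE 0.445), or 4.30-fold lower. NECTIN4 was chosen by these values, and the SE does not allow for that choice. In the order of falls in the mixture over all 14884 genes it stood at rank 26, between PDE6G at -2.11 and SYDE1 at -2.09. The log2 fold change of NECTIN4 against the same control libraries was -0.59 (SE 0.376) in miR3124_mimic, -1.19 (SE 0.409) in miR200b_mimic and -0.93 (SE 0.385) in miR92b_inhibitor, also without a test because the control libraries took part in the choice. The miR200b_mimic value rests on libraries that differ: it was -1.75 without replicate 2 and -0.86 without replicate 1.

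The 3 comparisons among the single-miRNA groups contrast none of the libraries that chose NECTIN4, and they were tested. The filter, normalization and dispersion of the fit still used all 10 libraries. In fits of the compared groups alone, 0 of the 3 comparisons were called. NECTIN4 was 0.60 higher on the log2 scale in miR3124_mimic than in miR200b_mimic (SE 0.441, adjusted p = 0.251) and 0.34 higher than in miR92b_inhibitor (SE 0.415, adjusted p = 0.509). Between miR200b_mimic and miR92b_inhibitor the log2 difference was -0.26 (SE 0.453, adjusted p = 0.66). Of the 3 comparisons, 0 were called by edgeR and 0 by DESeq2, and 0 had an unadjusted p under 0.05 by either tool. With standard errors above 0.4, differences of this size were not detectable at this depth.

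**Figure D1:**
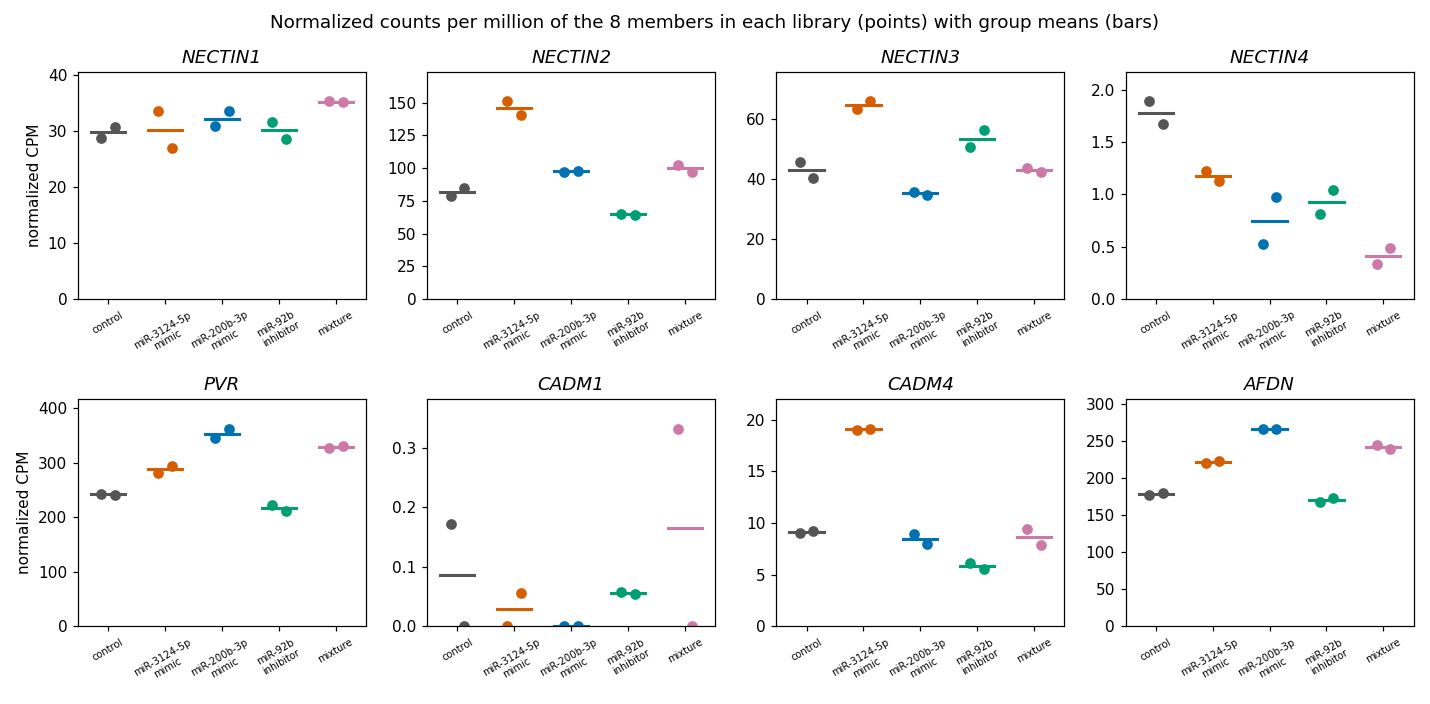
Normalized CPM of each of the 8 members (vertical axis, from 0, own scale per gene) in the 5 groups; points are libraries and bars the means of 2. NECTIN4 is highest in the 2 miRcontrol libraries (1.67 and 1.89) and lowest in the mixture (0.332 and 0.484), while NECTIN2, NECTIN3 and CADM4 are highest in miR3124_mimic and PVR and AFDN in miR200b_mimic.

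NECTIN1 (chromosome 11, 119623408-119729084, minus strand), a partner of NECTIN4 and NECTIN3 and an entry receptor of herpes simplex virus, had 28.8 and 30.7 normalized CPM in miRcontrol. It had 30.8 and 33.5 in miR200b_mimic, 33.5 and 27.0 in miR3124_mimic, 31.6 and 28.5 in miR92b_inhibitor, and 35.2 in both libraries of the mixture. The mixture libraries were above all others, and the libraries of miR3124_mimic and miR92b_inhibitor overlapped those of miRcontrol. In the mixture NECTIN1 rose by a log2 fold change of 0.24 (SE 0.0814, adjusted p = 0.0131), a call that was lost with DESeq2 (adjusted p = 0.0773), without the first replicate of miRcontrol (0.14) and without either mixture library (0.0524 and 0.057). Its log2 fold changes were 0.01 in miR3124_mimic (adjusted p = 0.911), 0.12 in miR200b_mimic (0.291) and 0.01 in miR92b_inhibitor (0.921). No neighbouring groups in the order of its levels differed beyond their spread.

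NECTIN2 (chromosome 19, 44846175-44889228, plus strand) joins epithelial cells and is a ligand of the lymphocyte receptors PVRIG, TIGIT and CD226. It had 78.8 and 84.6 normalized CPM in miRcontrol, 97.0 and 98.0 in miR200b_mimic, 150.9 and 140.6 in miR3124_mimic, 65.0 and 64.5 in miR92b_inhibitor, and 102 and 97.3 in the mixture. Both libraries of miR3124_mimic were above all others, both of miR92b_inhibitor were below all others, and no transfected group overlapped miRcontrol. NECTIN2 rose in miR3124_mimic from 81.7 ± 4.07 to 145.7 ± 7.25 normalized CPM, a log2 fold change of 0.83 (SE 0.0490, adjusted p = 1.46e-19). It also rose in miR200b_mimic by 0.26 on the log2 scale (SE 0.0516, adjusted p = 5.9e-05) and in the mixture by 0.29 (SE 0.0504, adjusted p = 4.91e-06), and these groups were not distinguishable (log2 difference of mixture and miR200b_mimic 0.03, adjusted p = 0.637). In miR92b_inhibitor it fell by 0.33 on the log2 scale (SE 0.0535, adjusted p = 1.84e-06). The gene TOMM40, which lies downstream on the same strand and does not overlap it in GENCODE v29, had 1996 to 3183 counts per library.

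NECTIN3 (chromosome 3, 111070071-111275563, plus strand) binds NECTIN1, NECTIN2 and PVR across contacts. It had 45.6 and 40.3 normalized CPM in miRcontrol, 35.8 and 34.8 in miR200b_mimic, 63.5 and 65.9 in miR3124_mimic, 50.7 and 56.4 in miR92b_inhibitor, and 43.6 and 42.5 in the mixture. The libraries of the mixture lay between those of miRcontrol, those of miR3124_mimic were the highest and those of miR200b_mimic the lowest. NECTIN3 rose in miR3124_mimic by a log2 fold change of 0.59 (SE 0.0649, adjusted p = 8.73e-11) and in miR92b_inhibitor by 0.32 (SE 0.0658, adjusted p = 0.000124). It fell in miR200b_mimic by 0.29 on the log2 scale (SE 0.0719, adjusted p = 0.00106), and without the first replicate of miRcontrol this call was lost (adjusted p = 0.0883). In the mixture the log2 fold change was 0.00 (SE 0.0676, adjusted p = 0.983). The antisense gene of NECTIN3 had 0 to 1 counts per library.

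PVR (chromosome 19, 44643798-44663583, plus strand), the poliovirus receptor, binds NECTIN3 and is a ligand of TIGIT, CD96 and CD226. It had 242 and 241 normalized CPM in miRcontrol, 344 and 362 in miR200b_mimic, 281.5 and 294 in miR3124_mimic, 222 and 211 in miR92b_inhibitor, and 326 and 331 in the mixture. No 2 groups overlapped: miR200b_mimic was highest, followed by the mixture, miR3124_mimic, miRcontrol and miR92b_inhibitor. Each step in this order passed the test, with adjusted p of 0.0238, 5.58e-05, 3.92e-07 and 0.00141. The step from miR200b_mimic to the mixture was lost with library totals only (adjusted p = 0.0829), without the second replicate of miR200b_mimic (0.248) and without either mixture library (0.141 and 0.0548). Against miRcontrol PVR rose by a log2 fold change of 0.55 in miR200b_mimic (SE 0.0391, adjusted p = 2.51e-16), 0.44 in the mixture (SE 0.0389, adjusted p = 2.18e-13) and 0.25 in miR3124_mimic (SE 0.0395). It fell by 0.16 on the log2 scale in miR92b_inhibitor (SE 0.0400), a call that was lost without the second replicate of that group (adjusted p = 0.0729).

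CADM1 (chromosome 11, 115169218-115504957, minus strand), an adhesion molecule known as a suppressor of lung tumours, was close to absent. It had 3 and 0 counts in miRcontrol, 0 and 0 in miR200b_mimic, 0 and 1 in miR3124_mimic, 1 and 1 in miR92b_inhibitor, and 6 and 0 in the mixture. It did not pass the filter on low counts, so no fold change or test is given, and a difference between groups was not detectable at this depth.

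CADM4 (chromosome 19, 43622368-43639839, minus strand) is a nectin-like molecule of epithelial and glial contacts. It had 9.04 and 9.19 normalized CPM in miRcontrol, 8.97 and 7.997 in miR200b_mimic, 19.0 and 19.1 in miR3124_mimic, 6.13 and 5.58 in miR92b_inhibitor, and 9.40 and 7.91 in the mixture. The libraries of miR3124_mimic stood far above all others and those of miR92b_inhibitor below them, while the mixture overlapped miRcontrol. CADM4 rose in miR3124_mimic from 9.12 ± 0.105 to 19.1 ± 0.0981 normalized CPM, a log2 fold change of 1.06 (SE 0.118, adjusted p = 1.28e-10). In miR92b_inhibitor it fell by 0.64 on the log2 scale (SE 0.142, adjusted p = 0.000324). Its log2 fold change was -0.11 in miR200b_mimic (SE 0.1365, adjusted p = 0.555) and -0.08 in the mixture (SE 0.131, adjusted p = 0.689).

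AFDN (chromosome 6, 167826922-167972023, plus strand) encodes afadin, the adaptor that links the tails of the nectins to actin. It had 177 and 179.5 normalized CPM in miRcontrol, 266 and 266 in miR200b_mimic, 219.6 and 222.5 in miR3124_mimic, 168 and 174 in miR92b_inhibitor, and 244 and 239.5 in the mixture. The order of the groups was that of PVR, and again no groups overlapped, but the step from miRcontrol to miR92b_inhibitor did not pass the test (log2 difference 0.06, SE 0.0402, adjusted p = 0.24). AFDN rose by a log2 fold change of 0.58 in miR200b_mimic (SE 0.0392, adjusted p = 4.58e-17), 0.44 in the mixture (SE 0.0390, adjusted p = 3.23e-13) and 0.31 in miR3124_mimic (SE 0.0396, adjusted p = 4.78e-09). The steps from miR200b_mimic to the mixture and from the mixture to miR3124_mimic were 0.14 and 0.13 on the log2 scale (adjusted p = 0.00277 and 0.00466). The antisense gene AFDN-AS1 had 0 to 8 counts and the neighbour KIF25 0 to 1. The groups in which PVR and AFDN were highest were also those with the highest sum of epithelial markers, and the part of that shift was not tested.

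**Figure D2:**
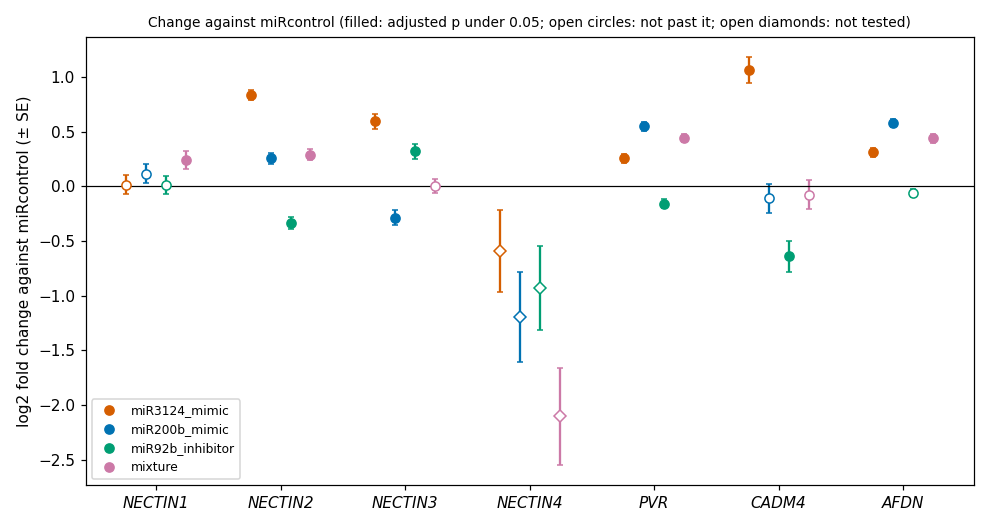
Log2 fold change against miRcontrol (vertical axis) of the 7 members that passed the filter on low counts, with bars of ± 1 SE from edgeR's fit of 2 libraries per group. Filled circles passed an adjusted p of 0.05, open circles did not, and the open diamonds of NECTIN4 were not tested; NECTIN4 lies between -0.59 and -2.10, and CADM4 in miR3124_mimic is the highest value at 1.06.

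Of the 7 members other than NECTIN4, 6 were tested, and their counts are set beside the share of all genes called in the same comparison. In miR3124_mimic 5 of the 6 were called (51.0% of all genes were), all of them higher (25.7% of all genes were called higher and 25.3% lower), with a median log2 fold change over the 6 of 0.45 beside 0.00 over all genes. Here 1 of the 6, CADM4, was called with a fold change of at least 2, as were 8.13% of all genes. None of the 6 was past that fold change in miR200b_mimic, miR92b_inhibitor or the mixture, where 4.88%, 1.91% and 4.67% of all genes were. In miR200b_mimic 4 of the 6 were called beside 40.6% of all genes. NECTIN2, PVR and AFDN rose (21.4% of all genes did) and NECTIN3 fell (19.1% did), with a median of 0.19. In miR92b_inhibitor 4 of the 6 were called beside 35.7% of all genes. NECTIN3 rose (17.5% of all genes) and NECTIN2, PVR and CADM4 fell (18.2%), with a median of -0.11. In the mixture 4 of the 6 were called beside 42.7% of all genes, and NECTIN1, NECTIN2, PVR and AFDN all rose (21.5% of all genes rose and 21.1% fell), with a median of 0.27. With 6 genes, and with shares of this size among all genes, the counts describe the members and do not set them apart. The 4 comparisons share their control libraries.

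Set against each single miRNA, the mixture was called for 6 of the 6 tested members against miR3124_mimic (49.1% of all genes), for 3 against miR200b_mimic (38.6%) and for 6 against miR92b_inhibitor (39.6%). Against miR3124_mimic, CADM4 was lower in the mixture by a log2 difference of -1.14 (SE 0.118, adjusted p = 2.24e-11), NECTIN3 by -0.59 (SE 0.0642, adjusted p = 9.89e-11) and NECTIN2 by -0.54 (SE 0.0474, adjusted p = 1.47e-13). PVR, AFDN and NECTIN1 were higher there, by 0.19, 0.13 and 0.23. The NECTIN1 call (adjusted p = 0.0179) was lost with DESeq2 (0.103), without the second replicate of miR3124_mimic (0.575) and without either mixture library (0.0579 and 0.0624). Against miR200b_mimic the called differences were smaller: NECTIN3 was higher by 0.29 (SE 0.0712, adjusted p = 0.000961), AFDN lower by -0.14 and PVR lower by -0.11. Against miR92b_inhibitor, NECTIN2, PVR, CADM4, AFDN and NECTIN1 were higher by 0.63, 0.60, 0.56, 0.50 and 0.23, and NECTIN3 was lower by -0.32. Here too the NECTIN1 call (adjusted p = 0.0209) was lost with DESeq2 (0.109), without the second replicate of miR92b_inhibitor (0.263) and without either mixture library (0.0786 and 0.0794).

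Among the single miRNAs, 5 of the 6 tested members differed in each comparison, beside 57.8% of all genes between miR3124_mimic and miR200b_mimic, 58.8% between miR3124_mimic and miR92b_inhibitor and 50.5% between miR200b_mimic and miR92b_inhibitor. NECTIN1 was the member not called in any of the 3, with adjusted p of 0.313, 0.995 and 0.327, though without the first replicate of miR3124_mimic it was called against miR200b_mimic (log2 difference -0.26, adjusted p = 0.0225). CADM4 was 1.70 higher on the log2 scale in miR3124_mimic than in miR92b_inhibitor (SE 0.127, adjusted p = 4.35e-16) and 1.17 higher than in miR200b_mimic (SE 0.122, adjusted p = 1.58e-11). NECTIN2 was 1.17 higher in miR3124_mimic than in miR92b_inhibitor (SE 0.0504, adjusted p = 1e-24). NECTIN3 was 0.88 higher in miR3124_mimic than in miR200b_mimic (SE 0.0684, adjusted p = 1.8e-15), and PVR and AFDN were lower there by -0.29 and -0.27.

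The mixture was next compared with the sum of the 3 single effects on the log2 scale, which asks whether the combined change equals what the separate changes add up to. Of the 6 tested members 3 differed, all with a mixture value below the sum, beside 21.7% of all genes (10.1% lower). For NECTIN3 the sum was 0.62 and the mixture 0.00, a difference of -0.62 (SE 0.135, adjusted p = 0.00044; 0.0502 without the second replicate of miRcontrol). For NECTIN2 the sum was 0.75 and the mixture 0.29, a difference of -0.46 (SE 0.102, adjusted p = 0.000525), and for AFDN they were 0.83 and 0.44, a difference of -0.39 (SE 0.0791, adjusted p = 0.000193). PVR differed by -0.20 (SE 0.0788, adjusted p = 0.0606), CADM4 by -0.39 (SE 0.266, adjusted p = 0.34) and NECTIN1 by 0.10 (SE 0.168, adjusted p = 0.75). For NECTIN4, without a test, the sum was -2.72 and the mixture -2.10, a difference of 0.62 (SE 0.849). Since the dose of each miRNA in the mixture was not given, a smaller dose and a combined effect cannot be told apart here.

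**Figure D3:**
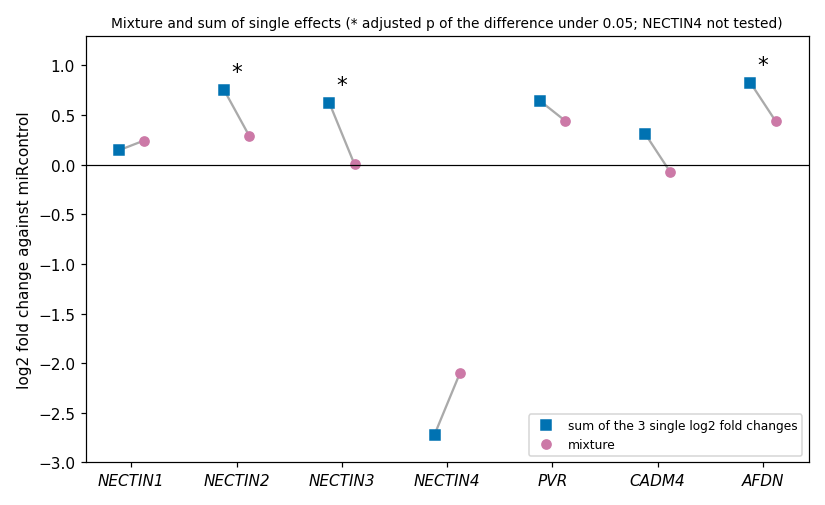
Sum of the 3 single log2 fold changes (squares) and log2 fold change of the mixture (circles), both against miRcontrol, for the 7 members that passed the filter; a star marks an adjusted p under 0.05 for the difference. NECTIN2, NECTIN3 and AFDN carry a star, with sums of 0.75, 0.62 and 0.83 and mixture values of 0.29, 0.00 and 0.44.

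To compare levels between genes, normalized CPM were divided by the kb of exon of each gene in GENCODE v29. The exons of all annotated transcripts of a gene were joined for this, which gave 13720 bases for AFDN. Such a length can exceed that of the transcripts expressed, so levels and shares between genes are approximate. In miRcontrol PVR had 68.6 ± 0.364 normalized CPM per kb (SD, n = 2), NECTIN2 21.8 ± 1.09, AFDN 13 ± 0.126 and NECTIN3 6.94 ± 0.603. CADM4 had 4.06 ± 0.0466 normalized CPM per kb and NECTIN1 3.87 ± 0.179, neighbours whose values differed by little more than their spread. NECTIN4 had 0.508 ± 0.0440 normalized CPM per kb, which was 0.117 ± 0.0308 in the mixture, and CADM1 0.00779. PVR thus made up 58.1% and 57.4% of the members' summed level per kb in the miRcontrol libraries, and 62.3% and 63.4% in miR200b_mimic. In miR3124_mimic its share was 50.1% and 52.1%, and that of NECTIN2 was 25.2% and 23.4% instead of 17.8% and 18.9% in miRcontrol. The fall of NECTIN4 therefore concerned the lowest of the nectins.

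**Figure D4:**
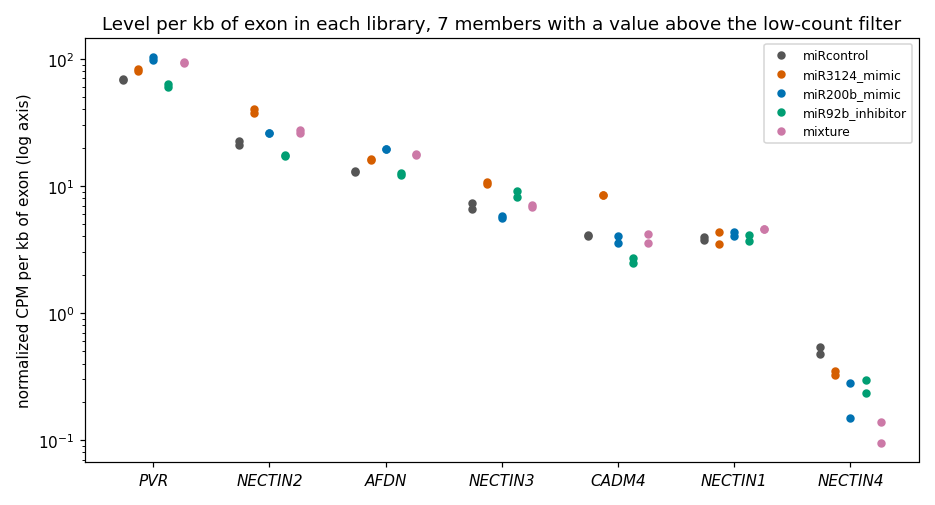
Normalized CPM per kb of exon (vertical log axis) of 7 members in each of the 10 libraries, ordered by their mean in miRcontrol, with colours for the 5 groups. In miRcontrol the levels run from 68.6 for PVR to 0.508 for NECTIN4.

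The wider nectin pathway was described over a list of 63 genes outside the 8 members, of which 54 were tested. In miR3124_mimic 36 were called, or 66.7%, with 21 higher and 15 lower and a median log2 fold change of 0.06. In miR200b_mimic 33 were called (61.1%), with 19 higher and 14 lower and a median of 0.05. In miR92b_inhibitor 27 were called (50%), with 6 higher and 21 lower and a median of -0.14. In the mixture 32 were called (59.3%), with 16 higher and 16 lower and a median of -0.02. The shares over all genes in these comparisons were 51.0%, 40.6%, 35.7% and 42.7%. Those called higher made up 25.7%, 21.4%, 17.5% and 21.5% of all genes, and those called lower 25.3%, 19.1%, 18.2% and 21.1%. These shares include weakly counted genes. Once any gene that fell under 10 counts in some library was left out, the shares were larger. Then 7205, 5879, 5349 and 6232 of 12585 genes were called. The part of expression level in the counts of the list was not tested.

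Other nectin-like molecules and receptors were hardly measured: CADM2, CADM3, CRTAM, CD226, TIGIT and CD96 had at most 8 counts in any library and were not tested, and TIGIT had 0. The receptor PVRIG, with a mean of 0.713 normalized CPM, was tested and not called against miRcontrol in any group (adjusted p 0.0901 to 0.786). Of the partners of the nectins on the same cell surface, 6 of 7 rose in miR3124_mimic (25.7% of all genes rose), among them the growth factor receptor PDGFRB from 7.63 ± 0.0191 to 29.5 ± 2.07 normalized CPM (log2 fold change 1.95, adjusted p = 1.64e-19) and the integrin ITGB3 from 37.8 ± 3.88 to 106 ± 0.944 (1.49, adjusted p = 3.39e-25). In miR200b_mimic the same 2 genes fell, PDGFRB to 3.04 ± 0.146 (log2 fold change -1.33, adjusted p = 1.97e-08) and ITGB3 to 26.7 ± 1.24 (-0.50, adjusted p = 4.27e-07). ITGB4, an integrin of epithelial cells, rose there from 56.5 ± 0.474 to 243 ± 4.31 normalized CPM (2.11, adjusted p = 8.53e-34) and also rose in the mixture to 181 ± 10.9 (1.68, adjusted p = 1.33e-29). In miR92b_inhibitor 5 of the 7 fell (18.2% of all genes fell), ITGB4 by 0.96 and the receptor ERBB3 by 0.87 on the log2 scale (adjusted p = 7.1e-16 and 0.000114). PDGFRB is also among the mesenchymal markers.

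Among the partners of afadin, polarity proteins and Rap1 regulators, 20 were tested. ACTN1, an actin crosslinker, fell in miR3124_mimic from 1197 ± 9.08 to 213 ± 9.82 normalized CPM (log2 fold change -2.49, adjusted p = 6.47e-42) and in the mixture to 311 ± 12.2 (-1.94, adjusted p = 1.89e-37). PLEKHA7, a junction protein, and PARD6B, a polarity protein, rose in miR3124_mimic by log2 fold changes of 1.47 and 1.38, and SORBS3 fell by 0.86 on the log2 scale (adjusted p = 1.18e-18, 5.76e-15 and 2.06e-19). PARD6B also rose in miR200b_mimic (1.82, adjusted p = 2.08e-19) and in the mixture (1.81, adjusted p = 1.15e-19). F11R, a junctional adhesion molecule, rose in miR200b_mimic from 44.5 ± 0.458 to 218 ± 0.485 normalized CPM (2.29, adjusted p = 1.74e-35) and in the mixture to 158 ± 5.89 (1.82, adjusted p = 8.77e-32), and fell in miR92b_inhibitor by 0.73 on the log2 scale (adjusted p = 9.46e-13). LMO7, which binds afadin and alpha-actinin, fell in miR3124_mimic, miR200b_mimic, miR92b_inhibitor and the mixture. Its log2 fold changes were -0.38, -0.43, -0.41 and -0.67 (adjusted p = 1.83e-10, 7.71e-12, 6.39e-11 and 5.2e-18). JAM3 fell in the mixture by 0.44 on the log2 scale (adjusted p = 5.91e-05). The called rises in miR92b_inhibitor were small, with RAPGEF2 at 0.24, RAP1B at 0.23 and PRKCI at 0.16.

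On the cadherin side, 7 of 8 tested genes were called in miR200b_mimic, 5 of them higher (40.6% of all genes were called and 21.4% were higher). CDH1, the E-cadherin that nectins bring to junctions, had 5 counts in both miRcontrol libraries together, and the ratio of its normalized counts to miRcontrol was 67.4 in miR200b_mimic (95% exact interval 28.6 to 209, counting error only; adjusted p = 1.91e-18) and 15.3 in the mixture (6.3 to 48.4; adjusted p = 3.59e-09). CDH3 rose in miR200b_mimic by a log2 fold change of 2.43 (adjusted p = 6.23e-12). The plakoglobin gene JUP rose there by 1.20 (adjusted p = 4.2e-22) and fell in miR92b_inhibitor by 0.81 on the log2 scale (adjusted p = 6.64e-13). Its log2 fold change was -0.31 in miR3124_mimic and 0.16 in the mixture (adjusted p = 0.000146 and 0.0376). CDH1, also an epithelial marker, had a mean of 9.975 normalized CPM in miR200b_mimic and 2.24 in the mixture. CDH2, also a mesenchymal marker, had 259 in miRcontrol, 219 in miR200b_mimic and 238 in the mixture. Of 9 genes that carry nectin signals to the small GTPases, CDC42 fell in miR200b_mimic from 393 ± 15.3 to 199 ± 11.2 normalized CPM (log2 fold change -0.98, adjusted p = 1.59e-24) and in the mixture by 0.59 on the log2 scale (adjusted p = 5.36e-17). WASF2, an activator of actin branching, and RAC1 fell in miR3124_mimic by 0.89 and 0.40 on the log2 scale (adjusted p = 1.37e-23 and 4.85e-13). ADAM17, a protease that sheds ectodomains, rose in miR3124_mimic by 0.45, in miR92b_inhibitor by 0.24 and in the mixture by 0.22 on the log2 scale (adjusted p = 4.67e-11, 9.03e-05 and 0.000155). It fell in miR200b_mimic, with a log2 fold change of -0.19 (adjusted p = 0.00205).

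**Figure D5:**
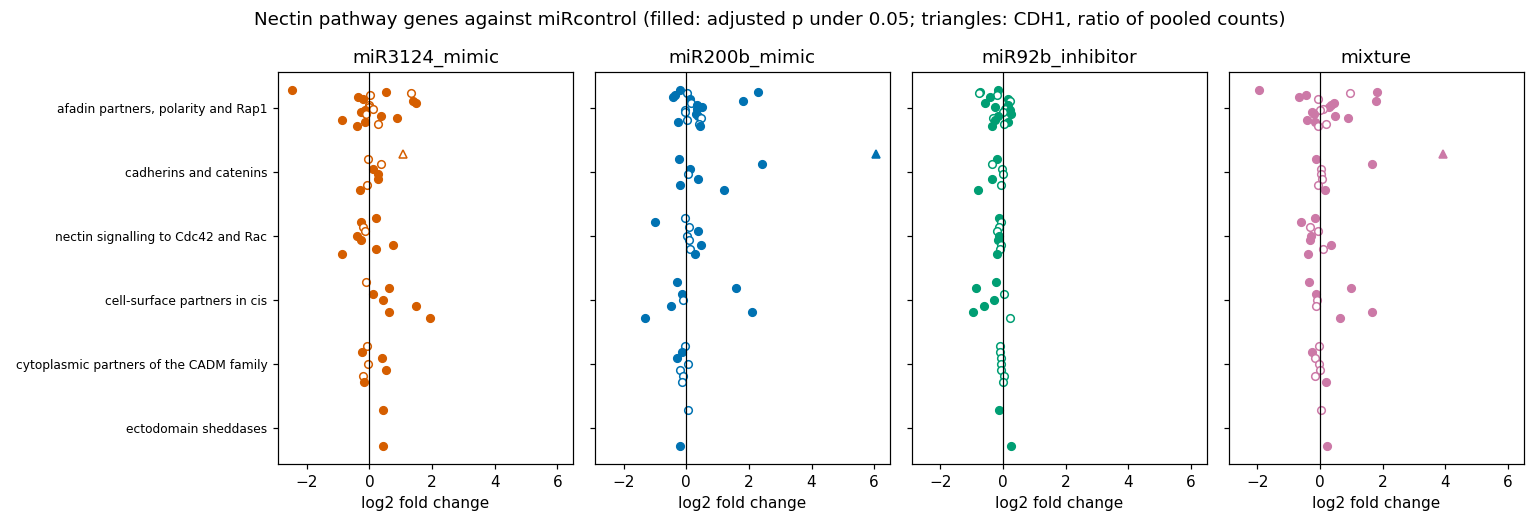
Log2 fold change against miRcontrol (horizontal axis) of the tested nectin pathway genes other than PVRIG, by role (vertical axis). There is 1 panel per transfected group and 1 point per gene, filled where the adjusted p was under 0.05. Triangles are CDH1, drawn at the ratio of its pooled counts, and left out for miR92b_inhibitor where it had at most 3 counts per library in both groups; 6 of 7 cell-surface partners lie right of 0 and are filled in miR3124_mimic, and 5 of 7 lie left of 0 and are filled in miR92b_inhibitor.

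ZEB1 and ZEB2, repressors that bind the E-box CACCTG, fell in 2 groups. Log2 fold changes were -1.29 and -2.27 in miR200b_mimic and -1.12 and -1.66 in the mixture (adjusted p = 3.55e-21, 3.61e-23, 9.67e-20 and 3.61e-20). Both rose in miR92b_inhibitor (0.20 and 0.26, adjusted p = 0.00327 and 0.00426). In miR3124_mimic ZEB2 rose (0.53, adjusted p = 3.91e-08) and ZEB1 was not called (-0.13, adjusted p = 0.0676). The members' promoters were searched for this E-box word on both strands (CACCTG or CAGGTG), from 250 bases before to 50 after the RefSeq start on GRCh38.p14. Of 10434 promoters of genes tested, 18.2% held it. CADM4 held it 2 times, PVR and NECTIN4 1 time each, and NECTIN2 and NECTIN3 0 times, while the promoters of NECTIN1 and CADM1 were not analysed here. The matches of PVR and NECTIN4 are shown with the match in capitals, named by the position of its first base from the start.
PVR, -187: cctccgtttcctCACCTGgaatgtgggcga
NECTIN4, -38: cccccagagacgCACCTGttctgacctgct
The PVR match lies at chr19:44643723-44643728 on the plus strand and that of NECTIN4 at chr1:161089591-161089596 on the minus strand. The gene bounds given above are from GENCODE v29 and differ from the RefSeq starts. By those bounds the NECTIN4 match lies just inside the gene and not before it. A match describes letters and says nothing of binding.

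The genes whose levels were most like those of NECTIN4 over the 10 libraries, by Pearson correlation of log2 normalized CPM among 12899 genes, were FAHD2A (0.945), MDGA1 (0.944), KBTBD6 (0.942), ERBB2 (0.939) and CDR2L (0.937). ERBB2, a receptor tyrosine kinase, had mean levels of 74.3 normalized CPM in miRcontrol, 60.8 in miR200b_mimic, 68.7 in miR3124_mimic, 63.4 in miR92b_inhibitor and 58.9 in the mixture. FAHD2A went from 12.2 in miRcontrol to 6.98 in the mixture and MDGA1 from 8.19 to 3.92. The libraries fall into 5 groups and the genes were picked for this likeness, so the correlations are a description of the order of the groups.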

How the data were processed

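Poly(A) RNA of the 10 BEAS2B libraries was prepared with a directional kit and sequenced as paired ends. The authors checked and trimmed the reads (FastQC, FASTX_Trimmer, BBMap) and mapped them with TopHat to GRCh38, per the submitters' processing notes, and deposited raw read counts per gene without normalization. The counting tool, its annotation and its strand setting were not given in the sources used here, and the FPKM values and the authors' normalization were not used here.

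Each file lists 58173 rows, of which 5771 repeat a symbol; repeated symbols were summed. All 10 libraries were fitted together in R 4.3.3 with edgeR 4.0.16 (filterByExpr, RLE normalization, quasi-likelihood test, no covariates; common dispersion 0.000751), with limma 3.58.1 as its base. The contrasts of the mixture with miRcontrol and with the summed single effects were tried on simulated data first, with changes in the mixture only. The libraries of each group differed by more than counting error (chi-square per degree of freedom 1.78 to 2.76) and were kept as 2 samples. Normalized CPM use the effective library sizes. Intervals and the floor of 3 counts per library cover counting error only. Alternatives were TMM, library totals, DESeq2 1.42.0, other filters, a replicate block, fits of the compared groups alone and leaving out each library.

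The members, the gene lists and the tests were chosen with earlier results of these data known. Pathway genes were named in each comparison with miRcontrol by a rule: up to 4 called genes that rose and up to 4 that fell with the largest fold change and a mean of at least 1 normalized CPM. PALS2 was matched as MPP6. No column of the files was left unmapped. Markers, ZEB1 and ZEB2, PVRIG and the neighbours of NECTIN4 in rank were named beyond this rule, as were further changes of PARD6B, JUP, LMO7 and ADAM17. Other named genes can also have been called in comparisons for which they are not given. The promoter of AFDN is not reported here.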

Additional observations from a re-analysis of the deposited data

Results flagged for a closer look

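For 3 members the change in the mixture differed from the sum of the 3 single changes by the test of that difference itself (the quasi-likelihood test of edgeR after Benjamini-Hochberg adjustment, 2 libraries per group). The log2 difference, mixture minus sum, was -0.62 for NECTIN3 (adjusted p = 0.00044), -0.46 for NECTIN2 (adjusted p = 0.000525) and -0.39 for AFDN (adjusted p = 0.000193), beside 21.7% of all genes with a called difference. In all 3 the mixture lay nearer to miRcontrol than the sum did.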

How the results depend on the processing

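Of 627 values recomputed under alternatives, 602 were kept. Of these, 182 were counts of calls, kept because they were within 1.5 times of those reported. The other 420 were log2 values that kept their direction. They also kept their side of the threshold or, where not tested, moved by less than the spread between libraries. Leaving out 1 library turned the direction of 6 log2 values, never past the threshold. NECTIN1 ranged from -0.1422 to 0.1675 in miR3124_mimic (below 0 without miRcontrol replicate 1, at -0.0352, or without miR3124_mimic replicate 1), from -0.0599 to 0.0906 in miR92b_inhibitor (below 0 without miR92b_inhibitor replicate 1 or, at -0.0326, miRcontrol replicate 1) and from -0.0573 (without miR3124_mimic replicate 2) to 0.2537 against the sum. NECTIN3 ranged from -0.0838 (without miRcontrol replicate 2) to 0.0951 in the mixture, with -0.0142 without mixture replicate 1. CADM4 ranged from -0.2036 to 0.0427 (without mixture replicate 2) in the mixture, and NECTIN4 from -0.8175 to 0.0732 (without miR200b_mimic replicate 1) between miR200b_mimic and miR92b_inhibitor. The difference of PVR from the sum was called with library totals (adjusted p = 0.0414), with at least 10 counts in every library (0.0418), and without miR3124_mimic replicate 1 (0.0461), miR200b_mimic replicate 1 (0.0294) or miR92b_inhibitor replicate 2 (0.0358). Without 1 library, the fall of NECTIN4 in the mixture ranged from -2.40 to -1.86 on the log2 scale, and its difference from the sum from 0.29 to 1.18 without miR200b_mimic replicate 1 and 2, respectively. These ranges use libraries that chose NECTIN4 and are a description. The stricter filter of at least 10 counts removed NECTIN4. The causes were not tested. Replicate numbers did not pair the libraries (correlations of replicate differences -0.1 to 0.0784 over 9268 genes); with a replicate block 5, 4, 4 and 4 members were called in miR3124_mimic, miR200b_mimic, miR92b_inhibitor and the mixture, the counts reported without it, and 37, 33, 28 and 32 pathway genes. Depth limits NECTIN4 and CADM1.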
